A study of Raphanus sativus with 8 samples.

Results

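The genes described here are FT, its close relative TSF, its partner FD and the direct regulators CO, TEM1 and TEM2 of the photoperiod pathway, in radish shoots. Members were the radish unigenes (assembled transcripts, each taken as 1 gene copy or transcript) whose Arabidopsis gene ID in the annotation was AT1G65480 (FT), AT4G20370 (TSF), AT4G35900 (FD), AT5G15840 (CO), AT1G25560 (TEM1) or AT1G68840 (TEM2). 13 unigenes of 78395 were found, among the 60161 that carry an Arabidopsis match to 17197 loci. FD had 7 unigenes, TEM1 had 3, and FT, CO and TEM2 had 1 each. No unigene used here was matched to TSF, so 5 of the 6 loci could be described. All 13 passed the filter on low counts, as did 65934 unigenes in all.

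In Arabidopsis, FT is the mobile signal for flowering. It is a small phosphatidylethanolamine-binding protein that is made in the companion cells of the leaf phloem, moves to the shoot apex, and there acts with FD, a bZIP transcription factor of the apex, through 14-3-3 proteins. Transcription of FT is raised in long days by CO, a B-box protein with a CCT domain that is stable in light, and is lowered by TEM1 and TEM2, RAV-family repressors that bind the FT gene and also repress genes of gibberellin (GA) synthesis. The FT and FD complex turns on SOC1, FUL, AP1 and other MADS-box and SPL genes. GA is a growth hormone that also promotes the change to flowering.

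RNA-seq had been done on whole shoots of 2 inbred lines, the early-bolting NH-JS2 and the late-bolting NH-JS1. Seedlings were vernalized for 10 days, which is a marginal treatment, and acclimatized for 14 days. NH-JS2_GA and NH-JS1_GA plants were then sprayed with 10 mM GA, NH-JS2 and NH-JS1 plants were not, and shoots were taken 6 days later. The vernalization was shared by all 4 groups, and no group without it was analysed here. The labels give the stage as bolting for both sprayed groups and vegetative for both unsprayed groups. The paper reports that sprayed NH-JS1 plants had not bolted at a later day than the one sampled. The stage label of NH-JS1_GA therefore does not match that phenotype. By the labels alone, GA and stage cannot be told apart. Each group had 2 libraries, and each library held the pooled shoots of 3 plants, so that n = 2 pools per group throughout and p-values measure the spread between pools. An exact permutation test of 2 pools against 2 cannot go below p = 0.333 (two-sided), so no such test was run. All shoots were taken at the same hour of the morning, so that CO and FT, whose transcripts follow a daily rhythm in Arabidopsis, were seen at 1 time of the day.

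Libraries held 23757588 to 34165272 counted reads. NH-JS2 replicate 2 was the shallowest and had the lowest TMM scaling factor, 0.886, against 0.983 to 1.04 in the other libraries. CPM below are counts scaled to a common library size. The labelled tissue could be checked with few markers. LHB1B1 and PSAD-1 of photosynthesis, 2 of 4 listed, summed to between 10600 and 16500 CPM in all groups, and AG, the 1 matched gene of 3 for floral organs, to between 0.318 and 0.73 CPM. Of 5 genes of the shoot apical meristem only CLV1 was matched, at 25.3 to 36.8 CPM, and none of 6 root genes was matched, so that carry-over of root tissue could not be checked. Levels are given as counts and as CPM, scaled by TMM and without correction for the length of the unigene, and are therefore compared between libraries but not between genes. In shoots taken whole, fewer cells that express a gene and less RNA per cell cannot be told apart.

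Counts of these genes were low. Every count in the deposited table is at least 1, in all libraries, so a count of 1 may stand for 0 reads. FT had from 1 to 131 reads per library, CO from 5 to 24, and the 7 FD unigenes from 10 to 51. TEM1 reached 242 reads and TEM2 reached 70. The criteria of the study for differential expression include a read count of at least 500, taken here as the mean of a group, and 0 of the 13 unigenes reached it in any group, the highest group mean being 258 scaled reads.

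FT, CO and all 3 TEM1 unigenes were higher in unsprayed NH-JS2 than in unsprayed NH-JS1, and FT and 2 of the 3 TEM1 unigenes were higher also between the sprayed groups. Of the 7 FD unigenes 2, near copies of each other, were lower in NH-JS2_GA relative to NH-JS1_GA by edgeR and neither passed in DESeq2. Another 2, TBIU063144 (−0.71) and TBIU063145 (−0.59), lay lower on the log2 scale without overlap of pools and were not called. The other 3 lay between 0.05 and 0.19 with overlapping pools. TEM2 passed in neither comparison. In edgeR's quasi-likelihood test with Benjamini-Hochberg adjustment, 5 of 13 unigenes were higher in NH-JS2 and 0 lower, against NH-JS1 and without GA, at an adjusted p under 0.05. The lines differed widely at that threshold, since 30.2% of all tested unigenes passed, 15.4% higher and 14.8% lower. With GA 3 of 13 were higher and 2 lower, where 28.7% of all unigenes passed, 14.4% higher and 14.3% lower. Summed over the unigenes of a locus, 3 of 5 loci were higher and 1 lower without GA, against 32.9% called of all loci (unmatched unigenes counted as a locus each), and 2 of 5 were higher with GA, against 31.1%. Counted in either direction over the 13 unigenes, edgeR called 2 between the unsprayed groups when NH-JS1 replicate 1 was left out, 3 when NH-JS1 replicate 2 or NH-JS2 replicate 2 was, and at most 7. Between the sprayed groups it called 1 without NH-JS2_GA replicate 1, 3 without NH-JS2_GA replicate 2, 2 without either NH-JS1 library or NH-JS1_GA replicate 1, and at most 6. DESeq2 called 3 of the 13 without GA, all among the 5 of edgeR, where it called 22.5% of all unigenes. With GA it called 2, FT and TEM1 TBIU011903, where it called 20.9% of all unigenes, and of these 2 only FT was among the 5 of edgeR. FT ranked 2970 by p of 65934 unigenes between the sprayed groups and 11073 between the unsprayed ones. The median log2 fold change of the 13 was 0.06 with GA and −0.32 without, 7 of the 13 being FD unigenes, where those over all tested unigenes were −0.01 and 0.00.

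For GA within a line no member passed in edgeR, and FT passed in DESeq2 in NH-JS2. In NH-JS2 0 of 13 unigenes were called by edgeR and 1, FT, had an unadjusted p under 0.05, while 0.0637% of all unigenes and 0.0668% of all loci were called. DESeq2 called FT there, where it called 0.306% of all unigenes. In NH-JS1 0 of 13 were called by edgeR, 1 FD unigene had an unadjusted p under 0.05 and lay lower with GA, and 0 were called by DESeq2, beside 0.0819% of all unigenes and 0.089% of loci by edgeR and 0.228% of unigenes by DESeq2. The difference of the GA effects between the lines gave 0 of 13 by edgeR, 1 at an unadjusted p under 0.05 and 0 by DESeq2. The background there was 0.0592% of unigenes and 0.0668% of loci by edgeR and 0.094% of unigenes by DESeq2.

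**Figure D1:**
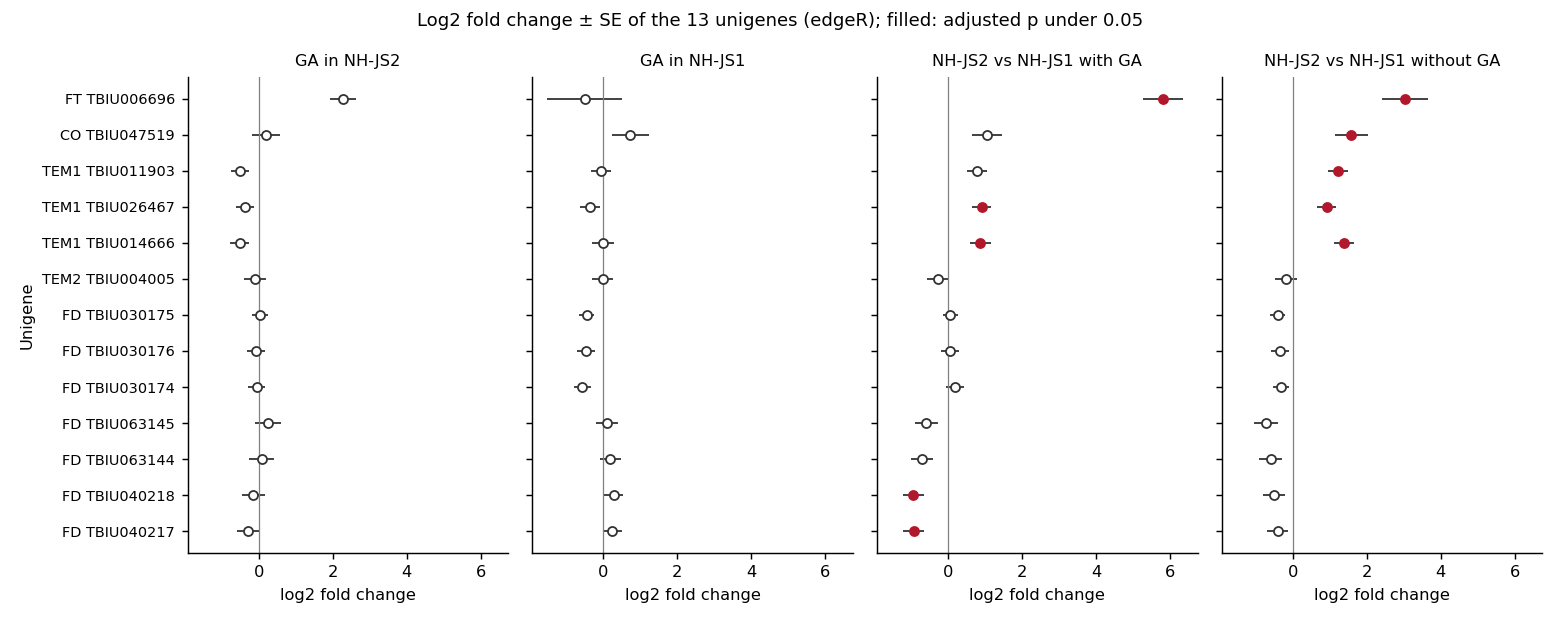
Log2 fold change with its standard error (x axis) of the 13 unigenes (y axis) in 4 comparisons, from edgeR; filled points have an adjusted p under 0.05. FT lies far to the right in both comparisons of NH-JS2 with NH-JS1 (5.82 with GA and 3.03 without), and no point is filled for GA within a line. The standard error of FT between the sprayed groups is smaller than its counting error.

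FT was matched by 1 unigene, TBIU006696, whose best hit was a gene of Brassica rapa at 99.2% identity, and it carries the phosphatidylethanolamine-binding domain (PF01161). It had 60 and 131 reads in the NH-JS2_GA libraries, 20 and 12 in NH-JS2, 2 and 1 in NH-JS1_GA, and 2 and 3 in NH-JS1. Both sprayed NH-JS2 pools were above both unsprayed ones, and all 4 NH-JS2 pools were above all 4 of NH-JS1. Scaled to depth, the means were 3.15 ± 1.44 CPM in NH-JS2_GA, 0.643 ± 0.101 in NH-JS2, 0.052 ± 0.0248 in NH-JS1_GA and 0.0765 ± 0.0263 in NH-JS1 (SD, n = 2 each). In this order of levels NH-JS2_GA and NH-JS2 did not overlap, NH-JS2 and NH-JS1 did not overlap, and NH-JS1_GA and NH-JS1 overlapped. The sprayed NH-JS2 pools stood at 2.13 and 4.16 CPM, farther apart than the unsprayed ones at 0.714 and 0.571.

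**Figure D2:**
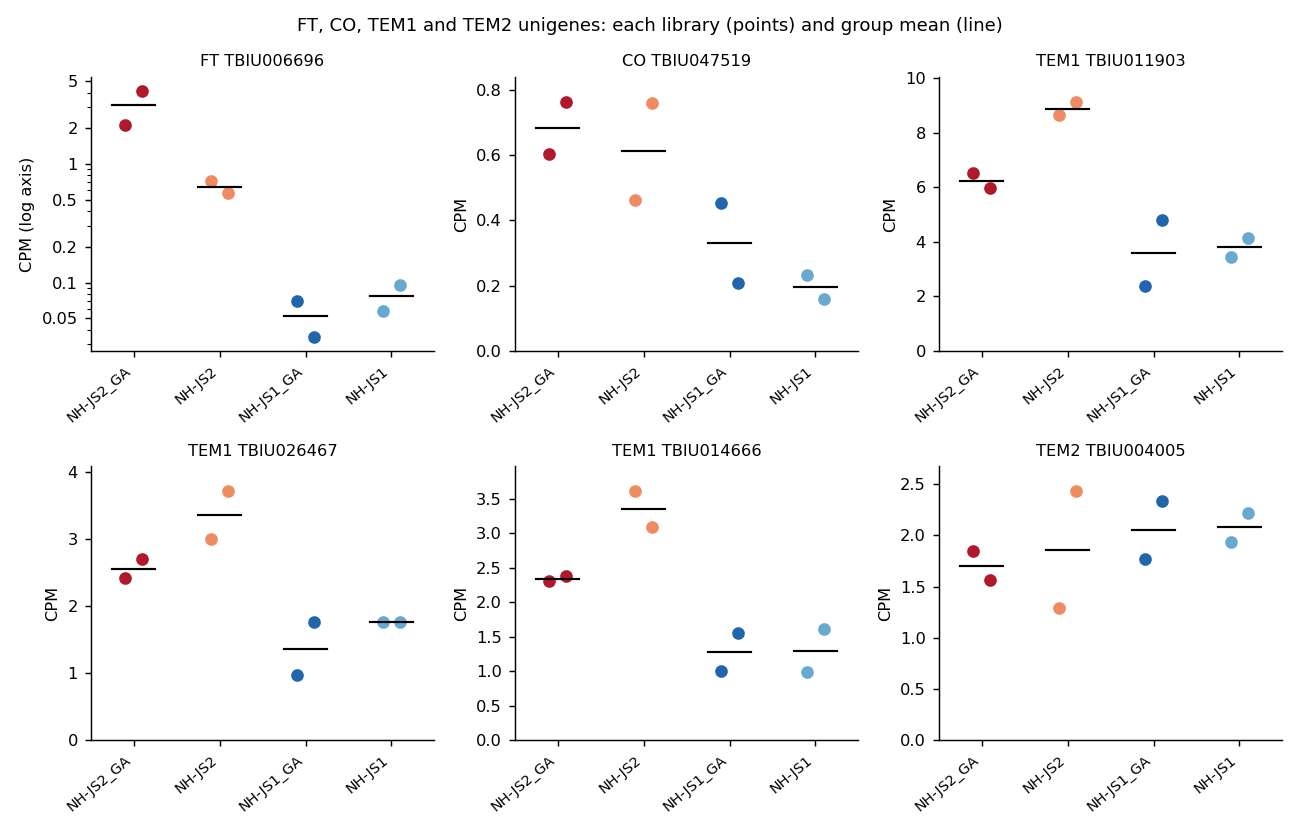
CPM (y axis, from 0, and on a log axis for FT) of the FT, CO, TEM1 and TEM2 unigenes in each library (points) of the 4 groups (x axis), with group means (lines). FT spans from 0.0344 CPM in an NH-JS1_GA pool to 4.16 CPM in an NH-JS2_GA pool, the 3 TEM1 unigenes are highest in NH-JS2, and the TEM2 groups overlap.

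The first question is whether FT responded to GA in each line. In NH-JS2 the log2 fold change was 2.28 (SE 0.36), higher with GA in both pools, and edgeR's adjusted p was 0.106 from an unadjusted p of 0.000158. FT ranked 98 by p of 65934 unigenes in this comparison. DESeq2 gave a log2 fold change of 2.29 and an adjusted p of 0.0269, which passed. Taken over the summed reads of a group, the ratio of NH-JS2_GA to NH-JS2 was 4.91, with a 95% interval of 3.36 to 7.38 for counting error only, which holds no spread between pools. Without NH-JS2_GA replicate 1, the lower of the sprayed pools, the log2 fold change was 2.68 and the adjusted p by edgeR 0.0186. Without NH-JS2_GA replicate 2 it was 1.71, with an adjusted p of 0.249. In those fits the lone pool is assumed to vary like the other groups. The direction was the same in every alternative run, while the call depended on the tool and on 1 pool.

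**Figure D3:**
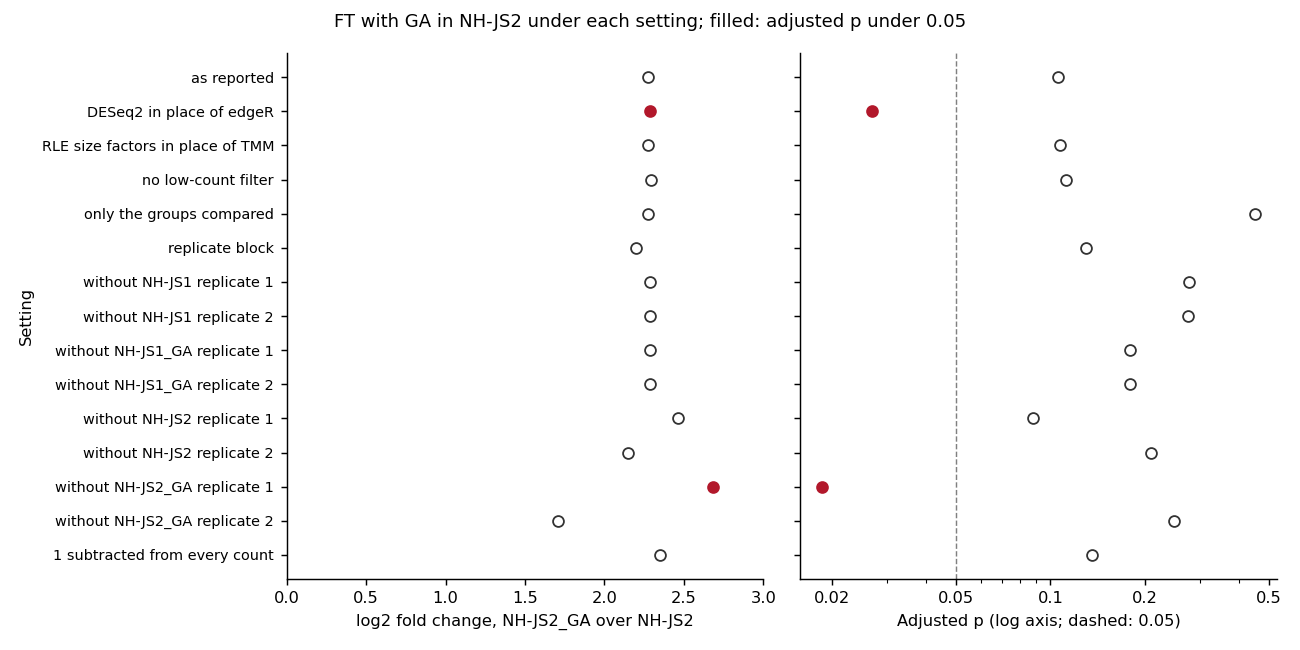
FT with GA in NH-JS2 under each way of fitting the data (y axis): log2 fold change of NH-JS2_GA over NH-JS2 (left) and adjusted p on a log axis with 0.05 dashed (right). The fold change stays between 1.71 and 2.68, and only the DESeq2 fit and the fit without NH-JS2_GA replicate 1 lie left of the dashed line.

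In NH-JS1 the FT counts with and without GA lay at the floor of the table. The log2 fold change was −0.51 (SE 1.02, adjusted p 0.946 by edgeR), and the ratio of summed reads was 0.686 with a counting interval of 0.107 to 3.53. With 1 subtracted from each count the ratio was 0.381 (0.00726 to 4.75). Both upper bounds lie below the ratio found in NH-JS2, which was 4.91 as deposited and 5.18 with 1 subtracted, though the lower bounds of that ratio, 3.36 and 3.51, lie within these intervals. A fall of FT by GA in NH-JS1, or a smaller rise, was not detectable at this depth. The difference of the GA effects, NH-JS2 minus NH-JS1, was 2.79 (SE 1.14) on the log2 scale, with an unadjusted p of 0.0373 and an adjusted p of 1 in edgeR. The effects in the lines are thus not shown to differ. For the other 12 members this difference lay between −0.53 and 0.51, with unadjusted p from 0.157 to 0.985 in edgeR.

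The second question is how the lines differed in FT. With GA the log2 fold change of NH-JS2_GA over NH-JS1_GA was 5.82 (SE 0.538, adjusted p 5.32e-05 by edgeR). Without GA that of NH-JS2 over NH-JS1 was 3.03 (SE 0.623, adjusted p 0.0058). Both calls stood in every alternative run, at adjusted p of at most 0.0014 and 0.0479 when each library was left out in turn. Since NH-JS1 had 1 to 3 reads per library, the size of the fold depends on the floor. The ratio of summed reads was 61.8 (counting interval 20.8 to 302) with GA and 8.63 (3.34 to 28.4) without. With 1 subtracted from each count these ratios were 183 (32.5 to 7280) with GA and 13.5 (4.19 to 69.1) without. As deposited, the counting interval with GA is wider than the SE of 0.538 implies, so that SE understates the error of FT. The companion cell genes SUC2, AHA3 and PP2-A1, all 3 of 3 listed and matched, summed to 647 to 768 CPM in NH-JS2_GA, 734 to 802 in NH-JS2, 634 to 645 in NH-JS1_GA and 603 to 613 in NH-JS1. These sums are higher in NH-JS2 by far less than FT is, and their part in the FT difference was not tested.

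TSF encodes the closest relative of FT and is partly redundant with it in Arabidopsis. With no unigene matched to it, reads of a TSF copy, if the shoots held any, would have been counted elsewhere or not at all, and whether any fell on the FT unigene was not tested. Among the other relatives of FT, BFT was matched, and TFL1, ATC and MFT were not. BFT, which delays flowering in Arabidopsis, had 4 unigenes, of which 3 were tested. TBIU020238 had 6 and 14 reads in NH-JS2_GA, 15 and 11 in NH-JS2, 2 and 2 in NH-JS1_GA, and 7 and 8 in NH-JS1. Both sprayed NH-JS2_GA pools were above both NH-JS1_GA pools and both unsprayed NH-JS2 pools above both of NH-JS1, while NH-JS2_GA replicate 1 lay among the unsprayed NH-JS1 pools. It averaged 0.329 ± 0.164 CPM in NH-JS2_GA and 0.0692 ± 0.000437 CPM in NH-JS1_GA (SD, n = 2 each, adjusted p 0.0127 by edgeR), and its log2 fold change between NH-JS2 and NH-JS1 was 1.21 (SE 0.378, adjusted p 0.0401). With GA 3 of 3 BFT unigenes were higher in NH-JS2_GA and without GA 1 of 3 was higher in NH-JS2, while 0 were called for GA in a line. Of all unigenes, 28.7% were called with GA and 30.2% without, in either direction. TBIU030309 and TBIU030310 had counts near those of TBIU020238, so that 3 unigenes need not be 3 genes. In the NH-JS1_GA libraries they had 2 to 4 reads, near the floor of the table.

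FD was matched by 7 unigenes, which are not 7 independent genes. They fell into 3 sets (TBIU030174, TBIU030175 and TBIU030176; TBIU063144 and TBIU063145; TBIU040217 and TBIU040218), within which counts differed by at most 5 reads in any library, while unigenes of different sets differed by at least 15 in some library. A set may be 1 gene assembled more than once, and its reads may have been divided among its unigenes. The best hits had 74% to 86.1% identity, in Brassica rapa for the first 2 sets and in T. halophila, another crucifer, for the third, and the bZIP domain (PF00170) was annotated in 5 of the 7.

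**Figure D4:**
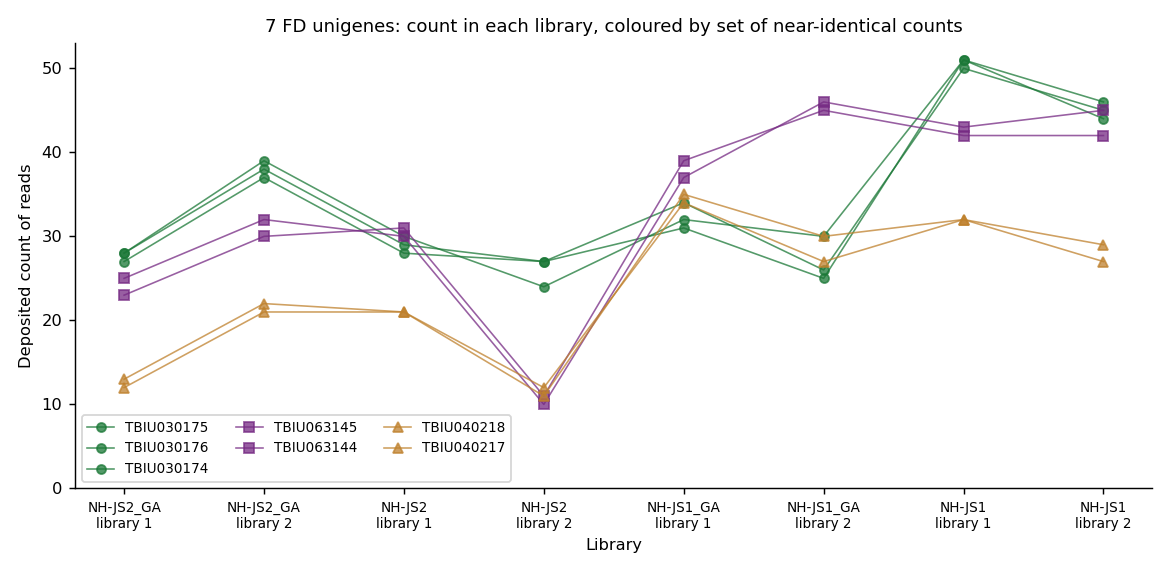
Count of reads (y axis) of the 7 FD unigenes in each of the 8 libraries (x axis), with the 3 sets of near-identical counts in 3 colours. Lines of 1 colour run together. The counts are not scaled to depth, and NH-JS2 library 2 is the shallowest. There the purple set is lowest, at 10 and 11 reads. The brown set (TBIU040218 and TBIU040217) has 11 and 12 reads there, and 13 and 12 in NH-JS2_GA library 1.

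The sets are given in turn, and a difference between them was not tested. TBIU040218 had 13 and 22 reads in NH-JS2_GA, 21 and 11 in NH-JS2, 35 and 30 in NH-JS1_GA, and 32 and 29 in NH-JS1. Both NH-JS2_GA pools were below both NH-JS1_GA pools, and both NH-JS2 pools below both NH-JS1 pools. Between the sprayed groups its log2 fold change was −0.94 (SE 0.278, adjusted p 0.0337 by edgeR), and its near copy TBIU040217 gave −0.93 (adjusted p 0.0393). Neither passed in DESeq2, where the adjusted p of TBIU040218 was 0.278. The edgeR call of TBIU040218 was also lost when NH-JS2_GA replicate 1, either NH-JS1_GA library or either NH-JS1 library was left out, at adjusted p of up to 0.193.

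TBIU063145 had 25 and 32 reads in NH-JS2_GA, 30 and 10 in NH-JS2, 37 and 46 in NH-JS1_GA, and 43 and 45 in NH-JS1. Its log2 fold changes were −0.59 (SE 0.313, adjusted p 0.208) with GA and −0.73 (SE 0.329, adjusted p 0.132) without, and neither was called by edgeR. Without NH-JS2 replicate 1 the value between the unsprayed groups was −1.48, with an adjusted p of 0.0146, the remaining NH-JS2 pool holding 10 reads. TBIU030175 had 28 and 39 reads in NH-JS2_GA, 30 and 24 in NH-JS2, 32 and 30 in NH-JS1_GA, and 51 and 46 in NH-JS1. Its sprayed pools of the lines overlapped, at 0.06 (adjusted p 0.874 by edgeR), and its unsprayed NH-JS2 pools were below those of NH-JS1, at −0.41 (adjusted p 0.189).

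All 7 FD unigenes were below NH-JS1 in NH-JS2 without GA, with no overlap of CPM between groups and log2 fold changes of −0.32 to −0.73, and 0 of the 7 passed in edgeR. The 7 are only 3 sets, and the share of all unigenes without overlap is not given here. Summed over the 7, FD stood at 6.25 ± 0.999 CPM in NH-JS2_GA, 6.29 ± 0.694 in NH-JS2, 8.15 ± 0.369 in NH-JS1_GA and 8.76 ± 0.0697 in NH-JS1 (SD, n = 2 each). The sum was lower in NH-JS2, relative to NH-JS1, by edgeR (log2 fold change −0.50, SE 0.161, adjusted p 0.0443). It stayed under 0.05 when any 1 of NH-JS2_GA replicate 1, NH-JS2_GA replicate 2 or NH-JS2 replicate 1 was left out, but not for the other 5 libraries, with adjusted p of 0.0424 to 0.166, and it was 0.108 in DESeq2, 0.0583 with no filter on low counts and 0.0698 in a fit of only these 2 groups. With GA the sum gave −0.40 (SE 0.16, adjusted p 0.0989). GA itself changed no FD unigene past the threshold. The first set had log2 fold changes of −0.45 to −0.57 with GA in NH-JS1, below the unsprayed pools without overlap, and TBIU030174 had the lowest unadjusted p among them, 0.0349 (adjusted p 0.593 by edgeR).

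CO, matched by TBIU047519 at 84.1% identity to a Brassica rapa gene and annotated with the B-box (PF00643) and CCT (PF06203) domains, had 17 and 24 reads in NH-JS2_GA, 13 and 16 in NH-JS2, 13 and 6 in NH-JS1_GA, and 8 and 5 in NH-JS1. The means were 0.684 ± 0.112 CPM in NH-JS2_GA, 0.613 ± 0.21 in NH-JS2, 0.329 ± 0.173 in NH-JS1_GA and 0.195 ± 0.0517 in NH-JS1 (SD, n = 2 each). In CPM the pools of NH-JS2 were above those of NH-JS1 both with and without GA, and the sprayed and unsprayed pools of a line overlapped. Without GA the log2 fold change of NH-JS2 over NH-JS1 was 1.58 (SE 0.456, adjusted p 0.0285 by edgeR), or 3-fold. DESeq2 did not call it (adjusted p 0.147), and edgeR lost it without NH-JS1 replicate 1 (0.0793), NH-JS1 replicate 2 (0.157) or NH-JS2 replicate 2 (0.142).

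With GA the CO log2 fold change of NH-JS2_GA over NH-JS1_GA was 1.05 (SE 0.402, adjusted p 0.085 by edgeR), which passed at 1.72 (adjusted p 0.0419) without NH-JS1_GA replicate 1, the higher pool of its group. GA gave CO 0.20 (adjusted p 0.927) in NH-JS2 and 0.73 (SE 0.495, adjusted p 0.769) in NH-JS1, by edgeR. The value in NH-JS1 was 0.06 without NH-JS1_GA replicate 1 and 1.18 without NH-JS1_GA replicate 2, and between these without each other library, with no call in any of these fits. At 5 to 24 reads a library, changes of this size could not be told from the spread of the pools.

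TEM1 had 3 unigenes, all annotated with the AP2 (PF00847) and B3 (PF02362) domains of RAV proteins, with counts that differed from each other by at least 27 reads in some library. TBIU026467 (85.1% identity) and TBIU014666 (78.5%) had the same Brassica rapa gene as best hit. Whether these are 1 gene was not tested, so 3 unigenes need not be 3 genes. TBIU011903, whose best hit had 91% identity, had 183 and 188 reads in NH-JS2_GA, 242 and 192 in NH-JS2, 69 and 140 in NH-JS1_GA, and 119 and 131 in NH-JS1. TBIU026467 had 68 and 85 in NH-JS2_GA, 84 and 78 in NH-JS2, 28 and 51 in NH-JS1_GA, and 61 and 56 in NH-JS1. TBIU014666 had 65 and 75 in NH-JS2_GA, 101 and 65 in NH-JS2, 29 and 45 in NH-JS1_GA, and 34 and 51 in NH-JS1. In all 3 the order of group means in CPM was highest in NH-JS2, then NH-JS2_GA, and lower in both NH-JS1 groups. NH-JS1_GA replicate 1 was the lower pool of its group in all 3.

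Without GA the 3 TEM1 unigenes were higher in NH-JS2, relative to NH-JS1, by log2 fold changes of 1.23 (SE 0.261, adjusted p 0.00691) for TBIU011903, 0.91 (SE 0.251, adjusted p 0.0233) for TBIU026467 and 1.38 (SE 0.27, adjusted p 0.00457) for TBIU014666, all by edgeR. The call of TBIU014666 stood without each library and in DESeq2, that of TBIU011903 was lost without NH-JS1 replicate 1 (adjusted p 0.0662), and that of TBIU026467 without either NH-JS1 library or NH-JS2 replicate 2 (0.0986 to 0.115) and in DESeq2 (0.0561). With GA the log2 fold changes of NH-JS2_GA over NH-JS1_GA were 0.79 (SE 0.266, adjusted p 0.0558) for TBIU011903, 0.91 (SE 0.264, adjusted p 0.0312) for TBIU026467 and 0.87 (SE 0.279, adjusted p 0.045) for TBIU014666.

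These calls with GA leaned on single pools. Without NH-JS1_GA replicate 1 none of the 3 TEM1 unigenes passed, at 0.38 for TBIU011903 (adjusted p 0.18), 0.55 for TBIU026467 (0.145) and 0.61 for TBIU014666 (0.229), by edgeR. TBIU014666 was also lost without either NH-JS2_GA library, at 0.119 and 0.15, and TBIU026467 without either NH-JS2_GA or either NH-JS1 library, at 0.0521 to 0.139. In DESeq2 neither passed, at adjusted p of 0.0761 for TBIU026467 and 0.111 for TBIU014666, and TBIU026467 had 0.0505 in the edgeR fit of only these groups. TBIU011903 passed without NH-JS1_GA replicate 2 (1.38, adjusted p 0.00199) and in DESeq2 (adjusted p 0.0395). Summed over the locus, TEM1 stood at 11.2 ± 0.125 CPM in NH-JS2_GA, 15.6 ± 0.486 in NH-JS2, 6.25 ± 2.65 in NH-JS1_GA and 6.87 ± 0.954 in NH-JS1 (SD, n = 2 each). The sum was higher in NH-JS2 by 1.15 (SE 0.251, adjusted p 0.0084) without GA and by 0.82 (SE 0.254, adjusted p 0.0411) with GA on the log2 scale. The call without GA was lost without NH-JS1 replicate 1 (adjusted p 0.0709) and that with GA without either NH-JS2_GA library, either NH-JS1 library or NH-JS1_GA replicate 1 (0.0633 to 0.13).

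Within NH-JS2, each TEM1 unigene stood lower in CPM in both sprayed pools than in both unsprayed ones. With 2 pools against 2 such an order can arise by chance, and its share among all unigenes is not given here. The log2 fold changes were −0.51 for TBIU011903 (SE 0.253), −0.38 for TBIU026467 (SE 0.245) and −0.52 for TBIU014666 (SE 0.256), with unadjusted p of 0.0758, 0.155 and 0.0758 and adjusted p of 0.607, 0.7 and 0.607 in edgeR, so none was called. In NH-JS1 the log2 fold changes for GA were −0.07 for TBIU011903, −0.37 for TBIU026467 and −0.01 for TBIU014666. The value of TBIU026467 came from NH-JS1_GA replicate 1 (0.973 CPM). Replicate 2 of that group, at 1.76 CPM, was nearly tied with the unsprayed pools, both at 1.77. Without NH-JS1_GA replicate 1 the log2 fold change was −0.02. FT was above and TEM1 below the unsprayed pools in NH-JS2_GA, and a relation between the 2 genes was not tested, since the 8 libraries fall into groups by line.

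TEM2, matched by TBIU004005 at 93.4% identity, had 52 and 49 reads in NH-JS2_GA, 36 and 51 in NH-JS2, 51 and 68 in NH-JS1_GA, and 67 and 70 in NH-JS1. The means of 1.7 ± 0.206, 1.86 ± 0.807, 2.06 ± 0.403 and 2.08 ± 0.197 CPM, for NH-JS2_GA, NH-JS2, NH-JS1_GA and NH-JS1 (SD, n = 2 each), overlapped in every comparison. In edgeR the log2 fold changes between the lines were −0.28 (SE 0.293, adjusted p 0.543) with GA and −0.19 (SE 0.295, adjusted p 0.679) without. For GA they were −0.10 (SE 0.304) in NH-JS2 and −0.01 (SE 0.284) in NH-JS1. TEM2 thus did not show the difference between the lines that passed for TEM1, though the difference between the TEM1 and TEM2 contrasts was not tested.

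Beyond the members, 59 loci around FT were listed, of which 45 had unigenes, giving 146 to test. For GA 0 of the 146 were called in either line by edgeR. At an unadjusted p under 0.05, 4 were higher and 14 lower in NH-JS2_GA, and 2 were higher and 13 lower in NH-JS1_GA, each against its unsprayed line. Of all tested unigenes 3.74% were higher and 5.03% lower at that p in NH-JS2_GA, and 3.22% higher and 4.75% lower in NH-JS1_GA. DESeq2 called 1 of the listed unigenes lower in NH-JS2_GA, of 143 with an adjusted p, and 0 of 146 in NH-JS1_GA. Between the lines 29 were higher and 24 lower with GA, and 32 higher and 24 lower without, by edgeR. The shares of all unigenes to set beside these and the counts of each list are 14.4% higher and 14.3% lower with GA, and 15.4% higher and 14.8% lower without. The medians of these log2 fold changes were 0.12 with GA and 0.08 without, beside −0.01 and 0.00 over all unigenes tested.

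Of the targets of FT and FD, 8 of 18 unigenes were higher and 0 lower in NH-JS2, both with and without GA, with median log2 fold changes of 0.92 with GA and 0.95 without. Of all unigenes 14.4% were higher with GA and 15.4% without. Several are near copies, so that 8 unigenes are fewer genes, and AP1 and LFY, the meristem identity genes, had no unigene matched here. SOC1, the MADS-box integrator that FT and GA both act on in Arabidopsis, had 2226 and 3400 reads for TBIU065173 in NH-JS2_GA, 2330 and 1066 in NH-JS2, 346 and 274 in NH-JS1_GA, and 297 and 333 in NH-JS1. The lines did not overlap, and the means were 93.6 ± 20.4, 67 ± 23, 10.7 ± 1.83 and 9.57 ± 1.38 CPM for NH-JS2_GA, NH-JS2, NH-JS1_GA and NH-JS1 (SD, n = 2 each). Its log2 fold changes were 3.12 (SE 0.268, adjusted p 3.37e-05) with GA and 2.81 (SE 0.266, adjusted p 6.13e-05) without. For GA in NH-JS2 it had 0.48 (adjusted p 0.615 by edgeR), with overlapping pools.

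SEP3, a MADS-box gene of floral organs that is also a target of the FT and FD complex, had 110 and 132 reads for TBIU018399 in NH-JS2_GA, 89 and 64 in NH-JS2, 6 and 8 in NH-JS1_GA, and 6 and 5 in NH-JS1. Between the lines its log2 fold changes were 4.04 (SE 0.228, adjusted p 2.5e-06) with GA and 4.19 (SE 0.244, adjusted p 3.13e-06) without, by edgeR. With 5 to 8 reads per NH-JS1 library, these SEs may understate the error, as that of FT does. TBIU018400, which had nearly the same counts, and TBIU075948 were higher too, at 4.07 and 5.16 with GA and 4.18 and 4.42 without. Of SEP3, GA gave 0.38 in NH-JS2 (unadjusted p 0.045, adjusted p 0.563 by edgeR), with both sprayed pools above both unsprayed ones. FUL, another MADS-box gene of the same complex's targets, is named after its values were seen. Its unigene TBIU019209 had 85 and 110 reads in NH-JS2_GA, 103 and 37 in NH-JS2, 34 and 36 in NH-JS1_GA, and 29 and 41 in NH-JS1, with log2 fold changes of 1.43 (adjusted p 0.0125) with GA and 1.38 (adjusted p 0.016) without.

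The SPL genes of the same list, SBP-box transcription factors that promote the change of phase, had 9 tested unigenes, 4 of SPL3, 1 of SPL4 and 4 of SPL5, and edgeR called 0 of them in any comparison. Those given here were named after their values were seen. SPL4 TBIU015321 had 73 and 83 reads in NH-JS2_GA, 221 and 90 in NH-JS2, 83 and 71 in NH-JS1_GA, and 168 and 127 in NH-JS1. Both sprayed pools were below both unsprayed ones in each line. For GA in NH-JS2 its log2 fold change was −1.23 (SE 0.269), with an unadjusted p of 0.00144 and an adjusted p of 0.304 in edgeR, while DESeq2 called it (−1.23, adjusted p 0.0496), the 1 listed unigene that DESeq2 called for GA. In NH-JS1 it was −0.74 (unadjusted p 0.0236, adjusted p 0.564 by edgeR). SPL5 TBIU010823 gave −0.75 in NH-JS2, with overlapping pools, and −0.98 in NH-JS1, with unadjusted p of 0.0669 and 0.0325 and adjusted p of 0.591 and 0.589 in edgeR. SPL3 TBIU066118 lay the other way in NH-JS2, at 0.53 (unadjusted p 0.0327, adjusted p 0.541 by edgeR).

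**Figure D5:**
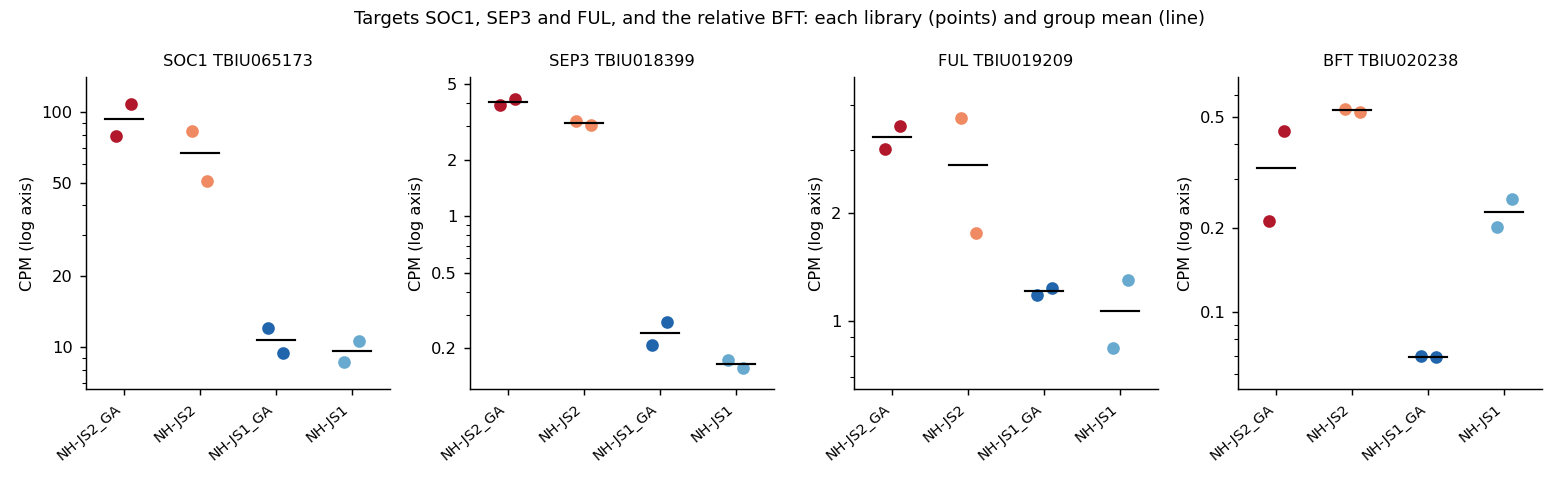
CPM on log axes (y axis) of SOC1, SEP3, FUL and BFT unigenes in each library (points) of the 4 groups (x axis), with group means (lines). SOC1 means are 93.6 and 67 CPM in NH-JS2_GA and NH-JS2, against 10.7 and 9.57 in NH-JS1_GA and NH-JS1, and for SOC1 and SEP3 no pool of NH-JS2 reaches down to NH-JS1.

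FTIP1 and NAKR1, which help FT move in the phloem of Arabidopsis, had 16 unigenes, of which 4 were higher and 1 lower with GA, and 5 higher and 1 lower without, in NH-JS2 relative to NH-JS1. The shares of all unigenes called in either direction, also for the list below, were 28.7% with GA and 30.2% without. The FTIP1 unigene TBIU034545 was the lower one, at −1.15 with GA (adjusted p 0.0228) and −1.98 without (adjusted p 0.00235), while TBIU019015 was higher at 0.55 (adjusted p 0.0383) and 0.71 (adjusted p 0.0139). NAKR1 TBIU019315 was higher at 0.54 (adjusted p 0.0357) and 0.59 (adjusted p 0.0232). The partners and relatives of FD, which are the bZIP proteins FDP and AREB3 and the 14-3-3 proteins, had few calls, 2 higher and 1 lower of 25 with GA and 3 higher without. AREB3 TBIU039630 was higher in NH-JS2_GA at 0.56 (adjusted p 0.0199) and in NH-JS2 at 0.51 (adjusted p 0.0298), in edgeR.

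Upstream of CO, 6 of 20 unigenes were higher and 1 lower with GA, and 8 higher and 3 lower without. Beside these stand 28.7% of all unigenes called with GA and 30.2% without, in either direction. SPA1, which helps degrade CO in the dark, was the lower one with GA. Its unigene TBIU023088 stood at 35.5 ± 2.17 CPM in NH-JS2_GA and 33.3 ± 2.55 in NH-JS2, against 86.6 ± 0.571 in NH-JS1_GA and 82.2 ± 2.92 in NH-JS1 (SD, n = 2 each), with log2 fold changes of −1.29 with GA and −1.30 without (adjusted p 3.1e-05 and 2.88e-05 by edgeR). CDF1 and CDF5, DOF repressors of CO and FT, were higher in NH-JS2. CDF1 TBIU028516 had 0.99 (adjusted p 0.00842) with GA and 1.21 (adjusted p 0.00237) without, and CDF5 TBIU018124 had 0.59 (adjusted p 0.0107) and 0.78 (adjusted p 0.00251). FKF1, the light receptor that removes CDF proteins, had no matched unigene.

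Of the CO-like proteins 2 of 11 unigenes were higher and 1 lower in both comparisons of the lines. Over all unigenes 28.7% were called with GA and 30.2% without, in either direction, shares to set also beside the NF-Y counts below. COL3 TBIU046910 was lower, at −0.66 with GA (adjusted p 0.0015) and −0.73 without (adjusted p 0.00085), and COL9 TBIU038878 higher, at 0.82 in both (adjusted p 0.00602 and 0.00655 by edgeR). Of the NF-Y partners of CO, 1 of 11 was higher and 2 lower in both. NF-YC4 TBIU031185 was lower, at −1.38 (adjusted p 0.000106) with GA and −1.30 (adjusted p 0.000166) without, and NF-YC9 TBIU044200 was higher, at 0.50 (adjusted p 0.00669) and 0.54 (adjusted p 0.00441).

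RAV1, the relative of TEM1 and TEM2, was lower in NH-JS2 in 1 of the 4 unigenes of RAV1 and EDF3, unlike TEM1. Lower calls made up 14.3% of all unigenes with GA and 14.8% without. TBIU035494 had 21.1 ± 0.484 CPM in NH-JS2_GA and 23.2 ± 4.87 in NH-JS2, against 37.9 ± 1.62 in NH-JS1_GA and 37.5 ± 2.92 in NH-JS1, and its log2 fold changes were −0.85 (adjusted p 0.00204) with GA and −0.70 (adjusted p 0.00566) without. GA3OX1 and GA3OX2, the GA synthesis genes that TEM proteins repress in Arabidopsis, had no matched unigene here.

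Of the other repressors of FT, 14 of 33 unigenes were lower and 3 higher with GA, where 14.3% of all unigenes were lower and 14.4% higher. Without GA 13 were lower and 4 higher, beside 14.8% and 15.4%. TOE1, an AP2-type repressor, was among the lower ones. Its unigene TBIU037050 stood at 4.84 ± 0.0989 CPM in NH-JS2_GA and 6.02 ± 1.04 in NH-JS2, against 10.4 ± 0.424 in NH-JS1_GA and 11.6 ± 0.499 in NH-JS1 (SD, n = 2 each). That is −1.10 with GA (adjusted p 0.00033) and −0.95 without (adjusted p 0.000757). SVP, a MADS-box repressor of FT, was higher in unsprayed NH-JS2, at 0.65 for TBIU023068 (adjusted p 0.00107). The activators PIF4 and CIB1 had 3 of 5 unigenes lower and 0 higher in both comparisons. All 3 were PIF4, and TBIU064918 had −1.30 (adjusted p 0.000728) with GA and −1.19 (adjusted p 0.00129) without, by edgeR.

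The unigenes most like each member in profile were ranked by Pearson's r of log2 CPM over the 8 libraries, as a description. For FT these were TBIU053457 (AT4G17270, a Mo25 family protein, r = 0.991), CRK5 TBIU052223 (0.988) and TCP13 TBIU045170 (0.986), and 2047 of 55461 unigenes had r above 0.9. For TEM1 TBIU011903 the number above 0.9 was 979, for CO 477, for TEM2 68 and for FD TBIU030175 22. The 8 libraries fall into groups by line, and a unigene that differs between the lines will resemble FT for that reason, so likeness is no sign of a shared role.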

How the data were processed

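RNA-seq of whole shoots gave 8 libraries, 4 groups of 2, grouped by line and GA from the labels. The authors trimmed the reads with SolexaQA, aligned them to assembled unigenes with Bowtie2 2.1.0 and counted reads; TopHat appears in the submitters' processing notes too, without a version. The deposited values used are raw counts for each unigene, which the authors annotated by BLASTp. The percent identity of the best hit is also from the authors' deposited table. Deposited normalized counts and fold changes of the authors' comparisons were not used.

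Counts were fitted in R 4.3.3 with edgeR 4.0.16: TMM scaling, filterByExpr by group, 1 mean per group over all 8 libraries, quasi-likelihood tests of 5 comparisons, and Benjamini-Hochberg adjustment over 65934 unigenes, or over 26955 loci and unmatched unigenes after summing counts per locus. A call is an adjusted p under 0.05. Log2 CPM used a prior count of 2. An SE from edgeR is the absolute log2 fold change over the square root of the F statistic of its test. Where reads are few, such an SE can be smaller than the counting error. Counting intervals are 95%. Fits were also tried on simulated counts, and no outcome of that is given here. Alternatives were DESeq2 1.42.0, RLE scaling, no filter, a fit of the groups compared, the replicate block, a stricter threshold, 1 subtracted from each count, and leaving out each library. Members and lists were chosen with earlier results of these data known. All member unigenes are described. The rest are described by at most 4 unigenes per list and comparison with the lowest adjusted p. The FUL and SPL unigenes fall outside that rule and were named after their values were seen. No sequence or genome position was used.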

Additional observations from a re-analysis of the deposited data

How the results depend on the processing

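With 2 pools per group and 1 to 242 reads, most member calls were near the threshold. The calls of FT between the lines and of TEM1 TBIU014666 without GA stood in every alternative run. Of the 13 unigenes, 5 were called in NH-JS2 against NH-JS1 without GA. The number called was 3 in DESeq2, 3 at an adjusted p of at most 0.01, and 2 to 7 when 1 library was left out (3 without NH-JS2 replicate 2). With GA 5 of the 13 were called, and the number was 2 in DESeq2 (1 of them, FT, among those 5), 1 at 0.01, 3 in a fit of only the groups compared, and 1 to 6 with 1 library left out. Of the 5 loci, 4 were called without GA, 2 in DESeq2, 2 at 0.01, and 1 to 4 with 1 library left out. With GA 2 loci were called, 1 at 0.01, 1 in the fit of the groups compared, and 1 to 2 with 1 library left out. For GA in NH-JS2 the count of 0 became 1 in DESeq2, by unigene and by locus, and ranged from 0 to 1 with 1 library left out. RLE scaling and subtracting 1 changed no count of calls.

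Replicate numbers 1 and 2 are shared by all groups in the labels. Differences between replicates correlated at only −0.0807 to 0.1228 between groups, which gave little sign of pairing by number. Such low correlations cannot show that pairing is absent, so a fit with the replicate block was also run. With the replicate block the counts were 5 and 5 unigenes and 3 and 2 loci, without and with GA. With GA 4 of the 5 unigenes were shared with the fit without the block. FD TBIU040217 was lost (−0.92, adjusted p 0.0522), TEM1 TBIU011903 was gained (0.82, adjusted p 0.0417 by edgeR), and the FD sum without GA was no longer called (adjusted p 0.0673).

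Of 571 alternative values for 41 member results, 505 kept direction and call, 42 lost and 7 gained a call, and 17 changed sign, all when 1 library was left out and none past the threshold. With GA in NH-JS2 these ranged from −0.15 to 0.18 for FD TBIU030175, −0.16 to 1.00 for TBIU063145 and −0.48 to 0.16 for TBIU040218, −0.15 to 0.57 for CO and −0.51 to 0.41 for TEM2. With GA in NH-JS1 they ranged from −0.054 to 0.24 for TBIU063145, −0.66 to 0.34 for TEM1 TBIU011903, −0.36 to 0.37 for TBIU014666 and −0.23 to 0.16 for TEM2. Between the lines they ranged from −0.70 to 0.22 for TEM2 without GA and −0.11 to 0.22 for FD TBIU030175 with GA. The cause of these shifts was not tested.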
